A study of Mus musculus with 60 samples.

Results

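The genes described here are 47 genes of the G2 phase and mitosis, taken as a fixed list of names and found by symbol among the 47729 mouse genes of a single-cell count table. All 47 were found, and all 47 passed a minimum level of 1 CPM (the count scaled to a common total of 1e6 counts on mouse genes) in at least 1 of the groups. The cells were PyMT-Bo1 cells, a mouse breast cancer line of C57BL6 background, which carried Luc2-EGFP (luciferase with a green fluorescent protein), H2B-mApple and Thy1.1 as lentiviral labels. They were stained with the membrane dye DiD, which is diluted when a cell divides, and were injected into the left ventricle of wild-type C57BL6 female mice that were 8 to 10 weeks old. Femurs and tibias of 5 mice were pooled, Thy1.1-positive and CD45-negative cells were sorted 1 per well, and 32 cells with high DiD (DiD+, called dormant in the study) and 28 cells with low DiD (DiD-, called proliferative) were sequenced. The cells of both groups were thus sorted from the same pool of mice, injected with the same stained line, and were parted by the level of dye. The groups can differ in other ways too, such as the RNA of other cell types described below. No label ties a cell to a mouse, so each group is 1 pooled sample, no test between the groups was possible, and the differences below have no replicate check.

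Cells prepare for division in G2 and separate their chromosomes in mitosis. The kinase Cdk1 with a B-type cyclin drives entry into mitosis, Aurora and Bub1 kinases and the kinetochore proteins attach chromosomes to the spindle, kinesins move spindle fibres, and the anaphase-promoting complex with Cdc20 destroys cyclin B to end mitosis. Most of these transcripts build up in late S phase and G2 and are low in G1 and in resting cells, which is why they are used to count dividing tumor cells. The comparison asks how far each gene differed between cells that kept the dye and cells that lost it, and which DiD+ cells held the transcripts.

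Counts on mouse genes ran from 2276789 to 7794219 per cell, and their medians were 4653711 (DiD+) and 4440161 (DiD-), and no pair of cells had identical counts (0 pairs). Of the epithelial markers, Krt8 had 10 counts or more in 32 of 32 DiD+ and 28 of 28 DiD- cells and Krt18 in 29 and 28 cells, while Krt19, Epcam and Cldn4 were at 0 in all 60 cells. At least 7 of 13 macrophage markers reached 10 counts in 6 DiD+ cells (numbers 19, 21, 24, 30, 37 and 88, by the number in their labels) and in DiD- cell 84. Summed macrophage CPM ran from 0 to 20785 in DiD+ cells and from 0 to 1813 in DiD- cells, and the 4 transgenes in the table were all at 0 counts in cell 30. At least 4 of 7 erythroid markers reached 10 counts in DiD+ cells 19, 30 and 37 and in DiD- cells 44, 84 and 86, and summed erythroid CPM reached 174258 in cell 30, 69786 in cell 37 and 46536 in DiD- cell 86, a cell that held 46 of the 47 genes. The main counts and class medians are also given without the 7 macrophage-marker cells.

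As pooled CPM, most of the 47 genes were lower in DiD+ cells by a modest factor, and the kinases were the lowest class. As log2 of DiD+ over DiD-, the 47 ratios had a median of -0.51, against 0.04 for the 12432 mouse genes that passed the same minimum. A ratio below 0 was seen for 43 of the 47 genes, against 46.8% of all such genes. At least 1.5-fold lower in DiD+ were 17 of the 47, against a background of 12.1%, and 1 gene, Psrc1, was at least 1.5-fold higher, against 20.8%. Without the 7 macrophage-marker cells the median was -0.27, 40 genes were below 0, and 8 stayed at least 1.5-fold lower, namely Top2a, Bub1, Aurkb, Tpx2, Aurka, Cdca2, Cks1b and Cdk1. With the erythroid-marker cells left out as well, the median was -0.24, 40 genes were below 0 and 7 were at least 1.5-fold lower. The part of these cells in the pooled ratios was not tested beyond this. Leaving out single cells moved the count of 17 to between 13 (without DiD- cell 65) and 29 (without DiD+ cell 67), and DiD+ cells 42 and 63, each left out alone, gave 28 and 27. Of the 17 genes, 13 stayed past 1.5-fold whichever cell was left out, and the other 4 were Ube2c, Ect2, Cdca8 and Dlgap5. Their ratios came nearest to 0 without DiD- cell 65 (Ube2c and Ect2), cell 27 (Cdca8) and cell 39 (Dlgap5). The cells named are those with the largest effect and not always the only ones that took a gene short of 1.5-fold. The sign of the ratio turned with some cell left out for 8 genes: Gas2l3, Ccnb1, Ccnb2, Ncapd2, Cenpf, Kif20b, Cdc20 and G2e3.

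Cell by cell the gap was wider than in the pooled CPM. The summed CPM of the 47 genes was 256 in the lowest, 1333 in the median and 28238 in the highest DiD+ cell, and 594, 6127 and 21386 in the DiD- cells. The ranges overlapped over most of their length, and the median cells differed by a log2 ratio of -2.20. For 45 of the 47 genes the median DiD+ cell was below the median DiD- cell, against 39.8% of all genes. The exceptions were Psrc1, whose median was higher in DiD+, and Gas2l3, whose median was 0 in both groups. For 22 genes the median DiD+ cell had no count at all, and for DiD- cells this held for 1 gene. At the same time, the highest DiD+ cell was above the highest DiD- cell for 39 of the 47 genes. Cells 63, 67 and 81 were the highest DiD+ cell for 18, 12 and 7 genes, so this count rests on few cells. For the counts of medians at 0 and of highest cells, the share over all genes was not taken. A gene was called held by a cell at 10 counts or more, and 42 of the 47 were held by a smaller share of DiD+ than of DiD- cells, against 48.9% of all genes. Without the macrophage-marker cells the median cell was lower for 44 genes and the share smaller for 40.

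**Figure D1:**
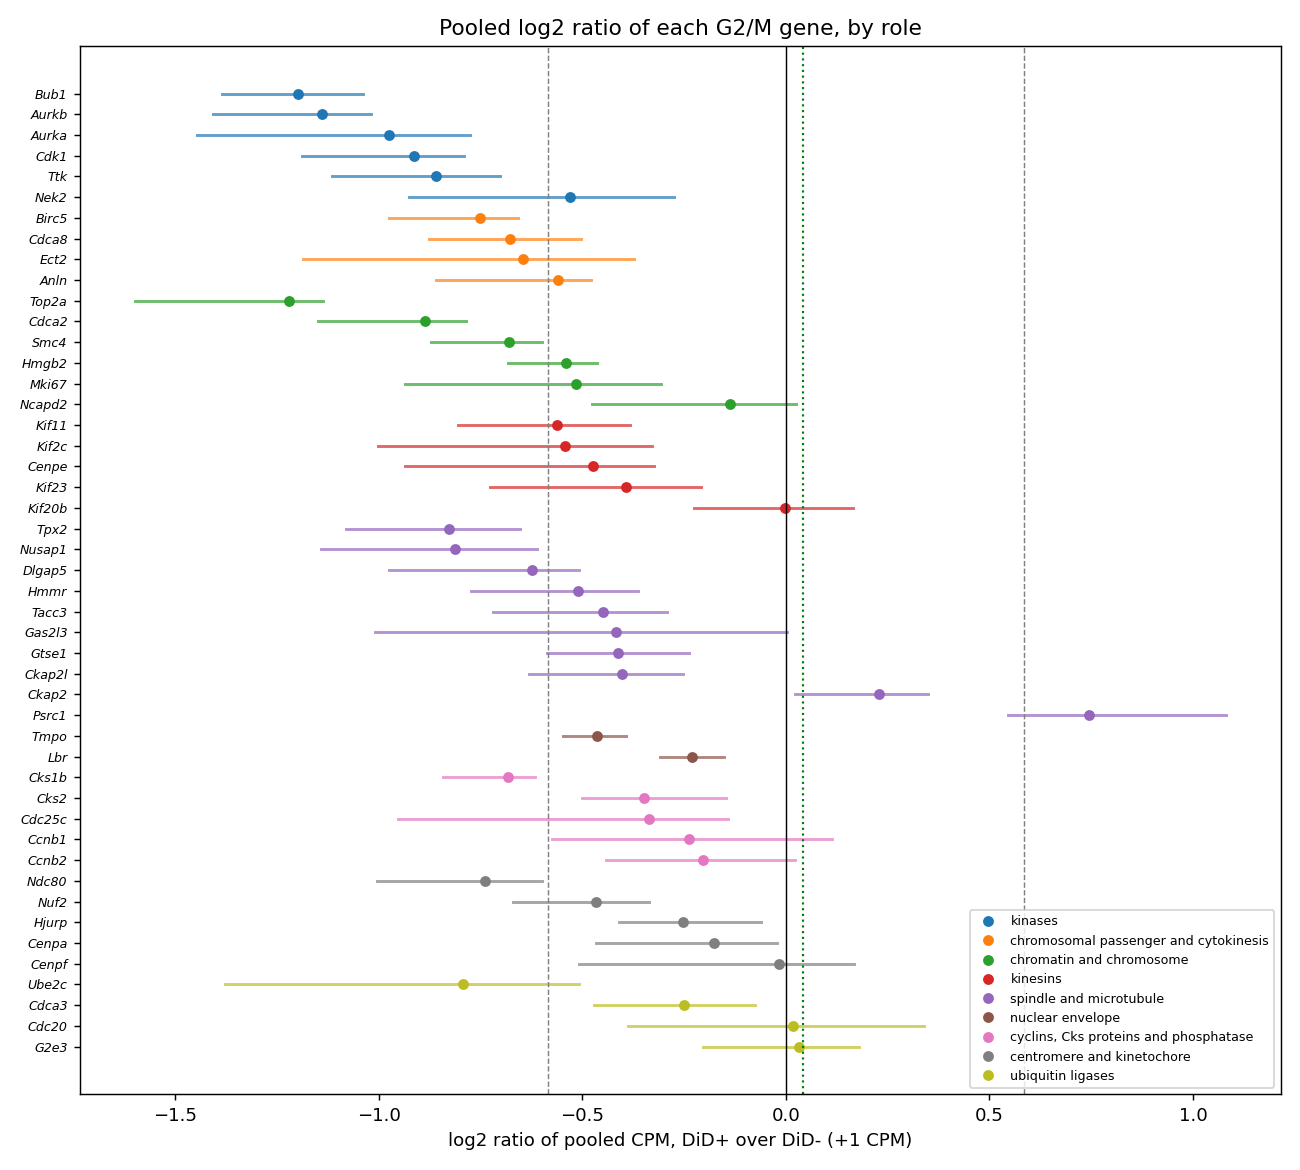
Pooled log2 ratio of DiD+ over DiD- for each of the 47 genes (points, coloured by role; pseudocount 1 CPM), with bars for the range when each of the 60 cells is left out in turn. Dashed lines mark 1.5-fold in either direction and the dotted line the median of all genes at 0.04. Top2a and the kinases Bub1, Aurkb, Aurka and Cdk1 lie furthest left, the kinase Nek2 lies at -0.53, and Psrc1 lies alone at the right at 0.75.

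The promoters of 4 genes are printed to show where the motifs counted here lie before the start, and where they are missing. Many late cell cycle genes carry a cell cycle genes homology region (CHR), a short element bound by the MuvB complexes that repress them in resting cells and activate them in G2, together with CCAAT boxes, which bind the factor NF-Y. RefSeq windows of GRCm38.p6, 250 bases before to 50 after the start, were at hand for 41 of the 47 genes, of which 4 had 2 windows. The CHR letters TTTGAA, read on both strands, were in 68.3% of the 41 (28 genes), against 20.2% of all 27025 genes with a window. The variant TTCGAA, its own reverse complement, was in 9.76% against 1.80%, and CCAAT on both strands in 78.05% against 41.1%. Either CHR form together with CCAAT was found for 26 of the 41 genes (63.4%) and for 8.61% of all genes. For the 33 S phase genes with a window the shares were 15.2% for TTTGAA and 72.7% for CCAAT, so it was the CHR letters that set the lists apart. In the members' windows 4 matches overlapped another match. A match of letters is a description of the window and not a measured site.

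The 250 bases before the start are shown for the 4 genes with the highest level per length among those described cell by cell, with TTTGAA, its reverse complement TTCAAA, and CCAAT in capitals. They lie at chr3:89418292-89418541 (minus strand, Cks1b), chr4:118437344-118437593 (minus strand, Cdc20), chr8:57511593-57511842 (plus strand, Hmgb2) and chr11:117848987-117849236 (plus strand, Birc5), and each is written in the direction of its gene.
Cks1b: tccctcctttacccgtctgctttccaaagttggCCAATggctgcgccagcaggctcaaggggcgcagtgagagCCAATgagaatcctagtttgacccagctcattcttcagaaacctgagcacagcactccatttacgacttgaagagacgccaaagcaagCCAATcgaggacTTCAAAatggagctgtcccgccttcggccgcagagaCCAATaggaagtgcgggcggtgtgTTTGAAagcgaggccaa
Cdc20: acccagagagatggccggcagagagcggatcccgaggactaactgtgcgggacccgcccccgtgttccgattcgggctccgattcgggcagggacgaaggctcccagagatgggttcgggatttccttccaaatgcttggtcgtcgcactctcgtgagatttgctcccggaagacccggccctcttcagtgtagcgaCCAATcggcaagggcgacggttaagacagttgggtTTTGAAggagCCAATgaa
Hmgb2: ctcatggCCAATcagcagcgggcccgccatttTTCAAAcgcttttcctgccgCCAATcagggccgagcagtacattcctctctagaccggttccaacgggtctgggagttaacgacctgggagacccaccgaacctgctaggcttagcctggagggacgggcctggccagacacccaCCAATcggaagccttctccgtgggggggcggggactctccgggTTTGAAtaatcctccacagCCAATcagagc
Birc5: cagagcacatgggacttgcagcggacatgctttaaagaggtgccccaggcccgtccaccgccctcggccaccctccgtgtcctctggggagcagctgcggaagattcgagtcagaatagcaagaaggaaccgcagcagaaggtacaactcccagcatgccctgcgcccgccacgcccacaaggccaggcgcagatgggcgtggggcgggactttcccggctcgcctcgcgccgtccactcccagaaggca
Cks1b held 2 CHR matches and 4 CCAAT boxes, Cdc20 held 1 and 2, and Hmgb2 held 2 and 4. In each of the 3 genes a CHR match lay close before the start, 17 bases before it in Cks1b, 18 in Cdc20 and 30 in Hmgb2. Birc5 had 0 matches to either motif in these letters.

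Of the 6 kinases, 5 were at least 1.5-fold lower in DiD+ cells. The median log2 ratio of the 6 kinases was -0.94, the lowest of the 9 role classes among the 47 genes. They kept the lowest class median in all 11 settings of scaling, pseudocount, minimum or macrophage-marker cells, the setting used here among them. Several of these settings could hardly change the order. The edgeR and DESeq2 scaling factors moved all classes by nearly the same amount, and removing the minimum changed no value. The kinases were also lowest with each of the 60 cells left out, where their median ran from -1.23 to -0.82. Without the macrophage-marker cells it was -0.64. With them left out the other class medians were -0.42 (chromatin), -0.40 (passenger complex and cytokinesis), -0.24 (kinesins), -0.24 (nuclear envelope), -0.21 (spindle), -0.15 (cyclins), -0.08 (kinetochore) and 0.06 (ubiquitin ligases). Bub1, which guards the spindle checkpoint at the kinetochore, had the lowest ratio of the class. It was at 0, 0 and 213 CPM in the lowest, median and highest DiD+ cell and at 0, 107 and 409 CPM in the DiD- cells. Pooled, this was 48.7 CPM (exact Poisson 95% interval 47.5 to 49.8) against 112.9 CPM (111.0 to 114.8), a log2 ratio of -1.20. Bub1 was held by 12 of 32 DiD+ cells (37.5%, exact binomial 95% interval 21.1 to 56.3) and by 19 of 28 DiD- cells (67.9%, 47.6 to 84.1). The Poisson intervals, here and below, cover counting error of reads only, as reads without molecular tags do not count separate molecules. The binomial intervals treat the cells of 1 pooled sample as separate draws. Neither kind covers the spread between mice.

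Aurkb, the Aurora kinase of the chromosomal passenger complex, stood at 0, 0 and 698 CPM in the lowest, median and highest DiD+ cell and at 0, 119 and 711 CPM in the DiD- cells. The tops of the groups were nearly level, and 13 DiD+ against 20 DiD- cells held it. Pooled Aurkb was 101.8 against 225.4 CPM, a log2 ratio of -1.14. Aurka, which matures the spindle poles, ran from 0 over a median of 0 to 776 CPM in DiD+ and from 0 over 49.8 to 554 CPM in DiD- cells. Its highest cell was a DiD+ cell (cell 63), yet 11 DiD+ cells held Aurka against 20 DiD- cells. The pooled log2 ratio of Aurka was -0.97, at 62.1 against 122.9 CPM, and it ran from -1.45 (without DiD+ cell 63) to -0.78 (without DiD- cell 65).

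Cdk1, the kinase that starts mitosis, had the highest level of the class per kb of exons (76.04 CPM per kb over all cells). It was at 0, 50.3 and 1466 CPM in the lowest, median and highest DiD+ cell and at 0, 486 and 1450 CPM in the DiD- cells. Unlike Bub1 and the Aurora kinases, Cdk1 was held by most cells of both groups, 26 of 32 (81.2%, 63.6 to 92.8) and 27 of 28 (96.4%, 81.7 to 99.9), so the gap lay in the level. Pooled, Cdk1 was at 268 against 506 CPM, a log2 ratio of -0.91. Ttk, the checkpoint kinase also called Mps1, was at 27.2 against 50.2 CPM, a log2 ratio of -0.86. Nek2, a centrosome kinase, was at 70.1 against 101.7 CPM with a ratio of -0.53. Nek2 was the 1 kinase short of 1.5-fold, and its ratio ran from -0.92 without DiD+ cell 67 to -0.27 without DiD- cell 65.

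For the 5 kinesins the median log2 ratio was -0.47 (-0.75 to -0.32 with 1 cell left out), and 0 of the 5 were 1.5-fold lower. They were the class most often lacking altogether, in DiD+ and in DiD- cells alike. In 11 of 32 DiD+ cells (34.4%, 18.6 to 53.2) no kinesin of the list was held, against 5 of 28 DiD- cells (17.9%, 6.06 to 36.9). Kif2c, which depolymerises microtubules at centromeres, had the highest level of the class per kb (16.03). It was at 0, 0 and 470 CPM in the lowest, median and highest DiD+ cell and at 0, 29.7 and 405 CPM in the DiD- cells. Kif2c was held by 9 and 16 cells, and the 5 DiD+ cells with the most Kif2c had 87.4% of its DiD+ counts. Pooled Kif2c was 57.9 against 84.7 CPM, a log2 ratio of -0.54.

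Kif11, the motor that pushes spindle poles apart, was at 89.2 against 132.1 CPM with a log2 ratio of -0.56. Cenpe, the motor that carries chromosomes to the spindle equator, was at 69.9 against 97.4 CPM (-0.47). Kif23, a motor of the central spindle, was at 66.7 against 87.9 CPM (-0.39). These 3 kinesins were held by 10, 11 and 15 DiD+ cells and by 18, 18 and 19 DiD- cells. Kif20b, a kinesin of cytokinesis, had no pooled difference to speak of, with 38.5 CPM in each group and a log2 ratio of -0.0019. Its ratio was 0.30 without the macrophage-marker cells and -0.29 with spike-in scaling, so it has no fixed sign. Its cells still differed: Kif20b was at 0, 0 and 225 CPM in the lowest, median and highest DiD+ cell and at 0, 33.4 and 169 CPM in the DiD- cells, and 13 and 18 cells held it. A few DiD+ cells with high values thus made up the pooled CPM.

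The 5 genes of the centromere and kinetochore had a median log2 ratio of -0.25 (-0.51 to -0.10 with 1 cell left out), and only Ndc80, the microtubule-binding subunit of the outer kinetochore, was at least 1.5-fold lower, at 54.0 against 90.8 CPM (-0.74). Its partner Nuf2 was at 67.5 against 93.7 CPM (-0.47). Ndc80 was held by 9 and Nuf2 by 12 of the 32 DiD+ cells, and both by 17 of the 28 DiD- cells. Cenpa, the histone H3 variant that marks centromeres, had the highest level of the class per kb (28.5). It was at 0, 21.9 and 993 CPM in the lowest, median and highest DiD+ cell and at 0, 108 and 671 CPM in the DiD- cells. Cenpa was held by 22 DiD+ cells (68.8%, 49.99 to 83.9) and 25 DiD- cells (89.3%, 71.8 to 97.7), more than the outer kinetochore genes. Its pooled log2 ratio was -0.18. Hjurp, the chaperone that loads Cenpa, was at 88.9 against 106.0 CPM (-0.25) and was held by 23 cells in each group. Cenpf, a large kinetochore protein, was at 101.5 against 102.6 CPM (-0.02) although 10 DiD+ against 19 DiD- cells held it, and 5 DiD+ cells had 88.3% of its DiD+ counts. The ratio of Cenpf was 0.31 without the macrophage-marker cells.

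**Figure D2:**
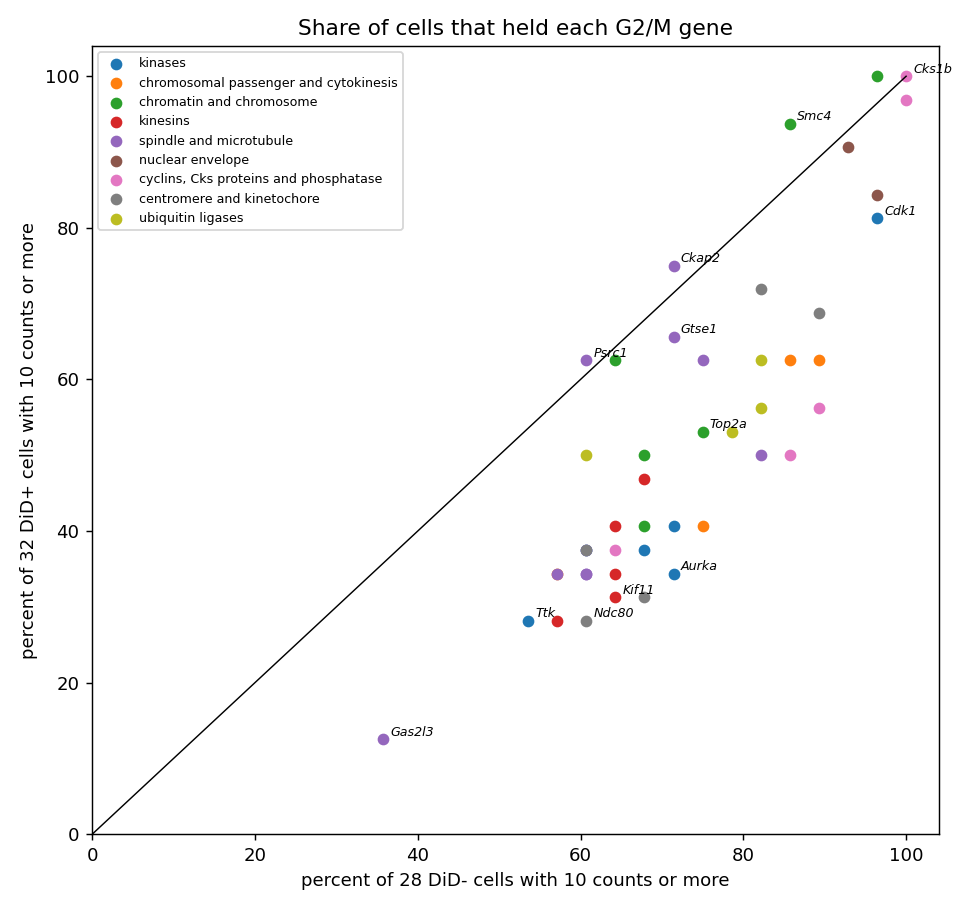
Percent of 28 DiD- cells (x) and of 32 DiD+ cells (y) that held each of the 47 genes at 10 counts or more, coloured by role; the line marks equal shares. The 42 genes below the line were held by a smaller share of DiD+ cells; Cks1b lies on it at 100% in both groups.

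The cyclins, the Cks proteins and the phosphatase Cdc25c had a median log2 ratio of -0.34. Cks1b, a small subunit that docks the kinase to its substrates, had the highest level of all 47 genes per kb (370.2) and was held by all 60 cells. It was at 33.8, 223 and 1306 CPM in the lowest, median and highest DiD+ cell and at 179, 495 and 1087 CPM in the DiD- cells. Pooled Cks1b was 327 against 526 CPM, a log2 ratio of -0.68, and it was the only gene of the class past 1.5-fold. Cks2, its relative, was held by 31 and 28 cells, at 67.99 against 86.8 CPM (-0.35), and 67.8% of its nonzero values were not whole. Both Cks genes were held even by DiD+ cell 68, the cell with the fewest members (5), beside Ccnb2, Hmgb2 and Smc4.

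Ccnb1, the cyclin B that activates Cdk1, was at 405 against 478 CPM pooled (-0.24), but at 14.5 against 159 CPM in the median cell. Its pooled ratio turned from -0.58 without DiD+ cell 63 to 0.11 without DiD- cell 27, so its direction rests on single cells, and it was 0.05 without the macrophage-marker cells. All of its counts above 0 included fractions (100%), which RSEM gives where reads also match another gene, and its level is uncertain to that extent. Ccnb2 was at 269.5 against 310.5 CPM (-0.20), and at 25.4 against 162.7 CPM in the median cell. Cdc25c, the phosphatase that switches Cdk1 on, was at 49.4 against 62.6 CPM (-0.34). Of its exon bases, 12.7% overlap a gene on the other strand, and the library kit does not mark strand.

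Birc5, the survivin subunit of the passenger complex, led its class of 4 genes per kb (83.6). It was at 0, 15.8 and 1112 CPM in the lowest, median and highest DiD+ cell and at 0, 305 and 992 CPM in the DiD- cells. Its pooled values were 217 against 366 CPM, a log2 ratio of -0.75, and 20 and 25 cells held it. Cdca8, the borealin subunit of the same complex, was at 113.2 against 181.6 CPM (-0.68), with a median of 0 in DiD+ cells and 113.4 CPM in DiD- cells. Ect2, the exchange factor that starts the cleavage furrow, was at 47.4 against 74.8 CPM (-0.65), from -1.19 without DiD+ cell 67 to -0.37 without DiD- cell 65. Anln, the scaffold anillin of the furrow, was at 269 against 397 CPM (-0.56). The class median was -0.66.

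In the chromatin class, whose median was -0.61, Top2a, the topoisomerase that untangles sister chromatids, had the lowest log2 ratio of all 47 genes, -1.22. It was at 0, 4.55 and 957 CPM in the lowest, median and highest DiD+ cell and at 0, 296 and 846 CPM in the DiD- cells. Pooled Top2a was 137.5 (135.6 to 139.4) against 321.7 (318.5 to 325.0) CPM, and 17 DiD+ against 21 DiD- cells held it. Hmgb2, an abundant chromatin protein of dividing cells, led the class per kb (112.7) and was held by all 32 DiD+ cells and 27 of the 28 DiD- cells. It was at 6.63, 130.3 and 1173 CPM in the lowest, median and highest DiD+ cell and at 1.40, 434 and 906 CPM in the DiD- cells, with a pooled ratio of -0.54. Of its values above 0, 81.7% were not whole, so part of its count is shared with other genes.

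Cdca2, which recruits a phosphatase to chromatin, was at 33.8 against 63.4 CPM (-0.89). Smc4, the ATPase core of condensin, was at 144.2 against 231.4 CPM (-0.68) although 30 of 32 DiD+ cells held it, a larger share than the 24 of 28 DiD- cells. Ncapd2, another condensin subunit, was at 65.99 against 72.6 CPM (-0.14), so the condensin genes of the list differed in their ratios. Mki67, the Ki-67 proliferation marker that coats mitotic chromosomes, was at 1.19 CPM in the median DiD+ and 41.2 CPM in the median DiD- cell, and was held by 16 and 19 cells, with a pooled ratio of -0.52. The nuclear envelope genes were held by most cells. Lbr, the lamin B receptor, was at 0, 158 and 530 CPM in the lowest, median and highest DiD+ cell and at 0, 211 and 455 CPM in the DiD- cells, with a log2 ratio of -0.23 and 27 cells holding it in each group. Of the nonzero values of Lbr, 76.8% were not whole. Tmpo, a lamina-associated protein, was at 179 against 248 CPM (-0.46).

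Among the 10 spindle genes the median was -0.43 and the spread was the widest of any class. Tpx2, which activates Aurka at the spindle, was at 81.5 against 145.4 CPM (-0.83). Nusap1, which bundles spindle fibres, was at 58.9 against 104.2 CPM (-0.81). Dlgap5, another spindle assembly factor, was at 49.9 against 77.4 CPM (-0.62). These 3 were the spindle genes at least 1.5-fold lower, and 82.9% of the nonzero values of Nusap1 were not whole. Tacc3, which cross-links spindle fibres, had the highest level of the class per kb (34.7). Tacc3 was at 0, 38.5 and 574 CPM in the lowest, median and highest DiD+ cell and at 0, 105 and 486 CPM in the DiD- cells, with a pooled ratio of -0.45 and 20 and 21 cells holding it.

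Hmmr, a microtubule-bound hyaluronan receptor, was at 41.3 against 59.3 CPM (-0.51). Gtse1 was at 58.8 against 78.5 CPM (-0.41) and Ckap2l at 71.8 against 95.2 CPM (-0.40). Gas2l3, a linker of actin and microtubules, was the lowest member in level, at 5.25 against 7.35 CPM (-0.42), and was held by 4 DiD+ and 10 DiD- cells. The top 5 DiD+ cells had 99.7% of its DiD+ counts. All 4 were thus lower in DiD+ cells by less than 1.5-fold.

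Psrc1 and Ckap2, both spindle genes, went the other way. Psrc1, a microtubule-associated gene first described as a target of p53, was at 0, 29.7 and 303 CPM in the lowest, median and highest DiD+ cell and at 0, 15.6 and 197 CPM in the DiD- cells. Its pooled values were 63.6 (62.3 to 64.9) against 37.6 (36.5 to 38.7) CPM, a log2 ratio of 0.75 that ran from 0.55 without DiD+ cell 35 to 1.08 without DiD- cell 66 and was 0.93 without the macrophage-marker cells. The share of cells that held Psrc1 hardly differed, at 20 of 32 (62.5%, 43.7 to 78.9) and 17 of 28 (60.7%, 40.6 to 78.5). Psrc1 also followed the other members weakly: its Spearman rho over cells with their summed CPM was 0.35 in DiD+ cells, where only Hjurp was lower (0.33), and 0.16 in DiD- cells, the lowest of the 47, while the median member reached 0.78 and 0.85. Its highest cells were DiD+ cells 35 and 36, followed by DiD- cell 66. Ckap2, a spindle-associated protein, was at 0, 55.3 and 598 CPM in the lowest, median and highest DiD+ cell and at 0, 63.2 and 299 CPM in the DiD- cells, with a pooled ratio of 0.23 (0.02 to 0.35 with 1 cell left out). Here the median cell was lower in DiD+ and the pooled value higher, and 24 and 20 cells held Ckap2.

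The 4 genes of ubiquitin ligases of mitosis had a class median of -0.12, the nearest to 0, which ran from -0.40 to -0.03 with 1 cell left out and was above 0 without the macrophage-marker cells. Cdc20, the activator of the anaphase-promoting complex, was at 0, 31.2 and 2220 CPM in the lowest, median and highest DiD+ cell and at 0, 116 and 1669 CPM in the DiD- cells. The pooled values of Cdc20 were 304 (301.2 to 306.8) and 300.3 (297.2 to 303.4) CPM, a log2 ratio of 0.02, which ran from -0.39 without DiD+ cell 67 to 0.34 without DiD- cell 27 and was -0.08 with spike-in scaling. The top 5 DiD+ cells had 80.2% of the DiD+ counts of Cdc20, and 20 and 23 cells held it. Ube2c, the conjugating enzyme of the same complex, was at 118.6 against 206.2 CPM (-0.79), but 22.8% of its exon bases overlap a gene on the other strand. Cdca3, a trigger of mitotic entry, was at 113.4 against 135.1 CPM (-0.25). G2e3, a ligase named for its G2 expression, was low in level, at 0, 3.41 and 131 CPM in the lowest, median and highest DiD+ cell and at 0, 14.6 and 89.8 CPM in the DiD- cells, with 16 and 17 cells holding it. Its pooled ratio of 0.03 was -0.14 with spike-in scaling and 0.32 without the macrophage-marker cells.

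The order of the genes by level was much alike in both groups, with some swaps. Per kb of exons, the highest members were Cks1b, Ccnb2 (188.1 CPM per kb over all cells), Cdc20 (161.8), Hmgb2 (112.7), Cks2 (110.5) and Ccnb1 (103.9). Spearman's rho between the CPM per kb in DiD+ and in DiD- cells was 0.96 across the 47 genes, which are not independent replicates. Kinases followed the order Cdk1, Aurkb (53.4), Aurka (35.3), Nek2 (18.7), Bub1 (17.8) and Ttk (7.63). Kinesins followed the order Kif2c, Kif11 (14.5), Kif23 (9.65), Cenpe (9.55) and Kif20b (5.53), and kinetochore genes the order Cenpa, Nuf2 (12.5), Hjurp (11.6), Ndc80 (10.9) and Cenpf (6.61). Neighbours such as Nek2 and Bub1, or Kif23 and Cenpe, differed by far less than the spread of either gene over cells, and some swapped places. Nek2 was above Bub1 in DiD+ cells (15.5 and 11.2 CPM per kb) and below it in DiD- cells (22.5 and 25.9). Hjurp was above Ndc80 in DiD+ (10.7 and 8.31) and below it in DiD- cells (12.7 and 13.98). Psrc1 ranked 22nd of the 47 genes in DiD+ and 38th in DiD- cells.

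The cells that held these genes were then described one by one. The median DiD+ cell held 20.5 of the 47 genes (range 5 to 47) and the median DiD- cell 39 (range 8 to 47). At least 24 genes were held by 14 of 32 DiD+ cells (43.8%, 26.4 to 62.3) and by 22 of 28 DiD- cells (78.6%, 59.0 to 91.7), and the numbers were the same after each cell was thinned to 2200000 counts. Without the macrophage-marker cells they were 12 and 21. At the other limits, 26 DiD+ and 25 DiD- cells (81.2% and 89.3%) held at least 12 genes, so the groups were close there, and 9 and 14 (28.1% and 50%) held at least 36. Of these, 6 DiD+ cells and 14 DiD- cells held at least 44 genes. The DiD+ cells nearest the limit were cell 18 with 28 genes inside it and cells 22 and 36 with 22 genes outside it.

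A few DiD+ cells had most of the group's G2/M transcripts. Cells 63, 67 and 81 were the highest of all 60 cells, at 28238, 25548 and 22490 summed CPM, followed among DiD+ cells by cell 42 at 18858 and cell 64 at 13479. Together these 5 cells had 59.9% of the G2/M counts of the 32 DiD+ cells, and the top 10 had 82.7%. In DiD- cells the top 5 had 43.3% and the top 10 had 69.6%. By CPM, cell 63 was the highest DiD+ cell for 18 genes, cell 67 for 12, cell 81 for 7 and cell 42 for 4. Only 8 DiD+ cells were above the median DiD- cell, and 4 DiD- cells were below the median DiD+ cell. Cells 63, 67, 81, 42 and 64 held 46 or 47 of the 47 genes, and 0 to 1 of the 13 macrophage markers were at 10 counts in any of them.

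**Figure D3:**
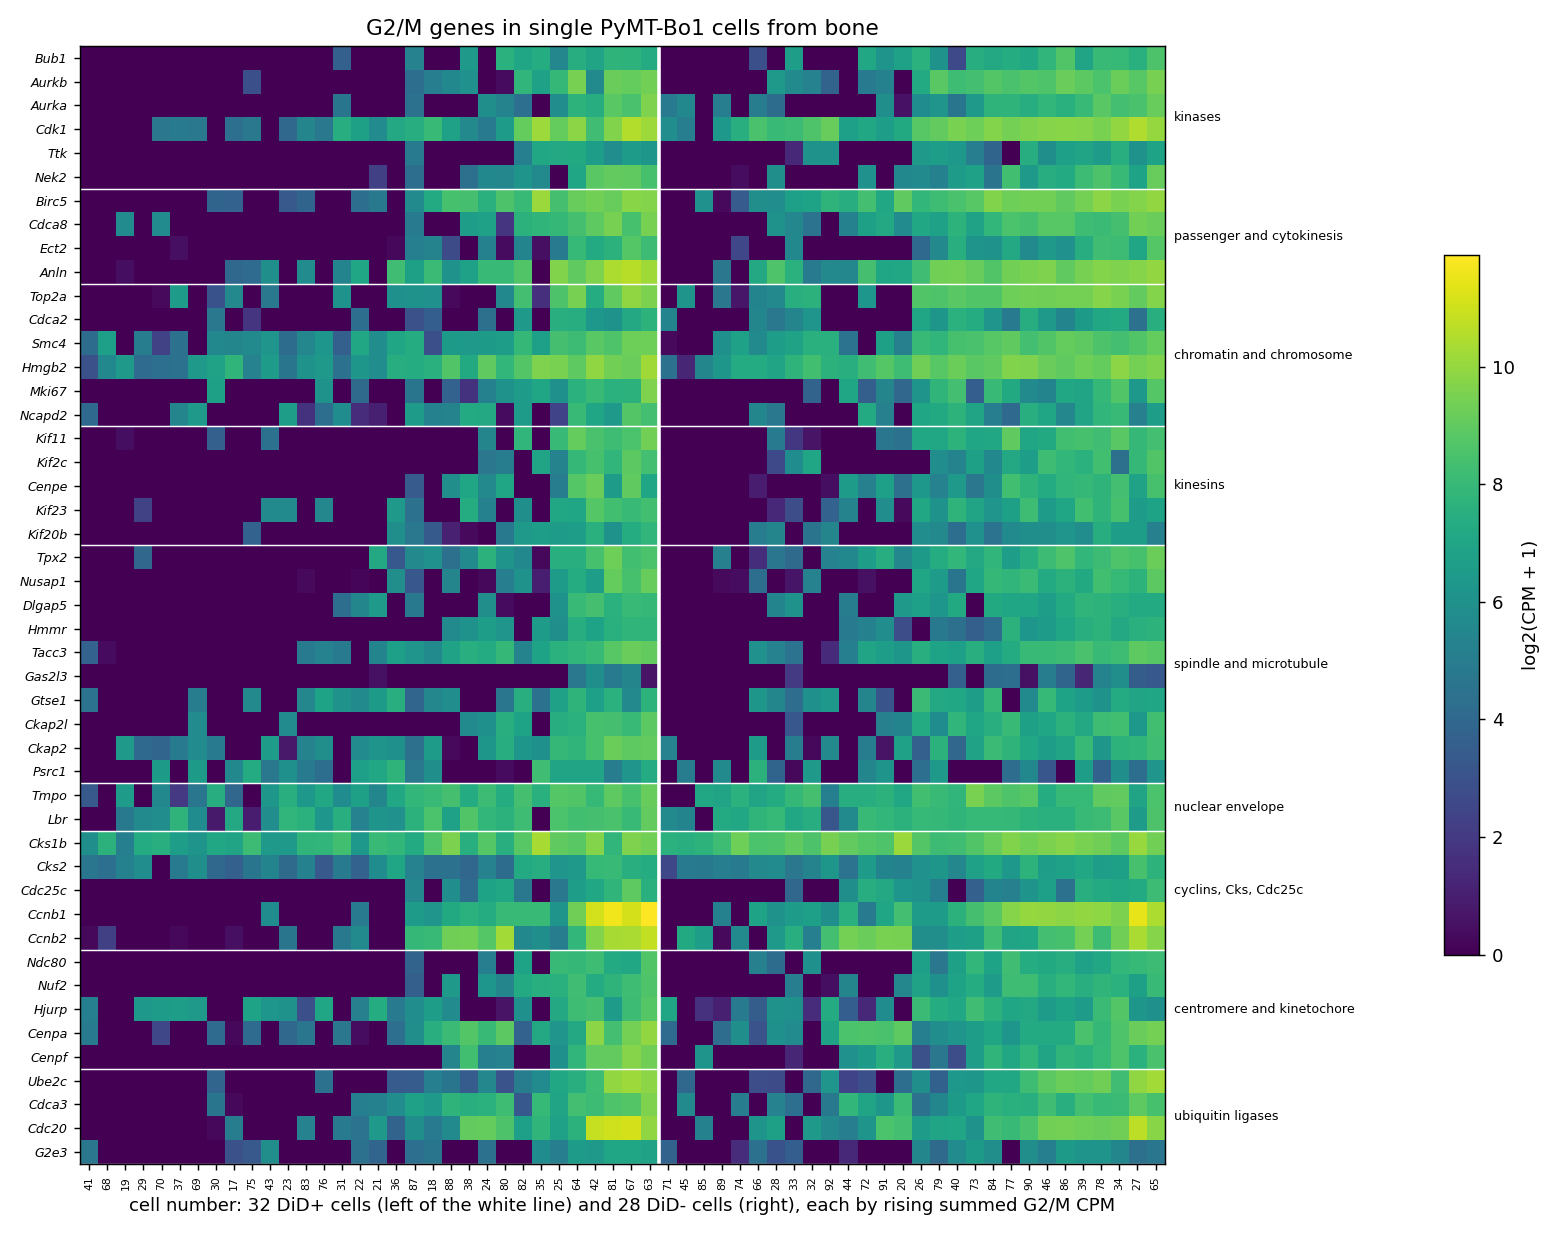
Log2(CPM + 1) of the 47 genes (rows, by role, classes in order of their median ratio) in 32 DiD+ cells (left of the white line) and 28 DiD- cells (right), each group ordered by summed G2/M CPM. The bright area at the right edge of the DiD+ block is cells 64, 42, 81, 67 and 63, which held 46 or 47 genes; Cks1b and Hmgb2 are lit across nearly all cells, and kinesins and most kinases are dark in the left part of the DiD+ block.

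All 6 kinases were held by 7 DiD+ cells (21.9%, 9.28 to 39.97), namely 63, 67, 81, 42, 64, 82 and 87, and by 13 DiD- cells (46.4%, 27.5 to 66.1). All 5 kinesins, and likewise all 5 kinetochore genes, were held by 6 DiD+ cells (18.8%, 7.21 to 36.4), and in both cases these were 63, 67, 81, 42, 64 and 25. In DiD- cells these numbers were 13 and 14. No kinase was held by 6 DiD+ cells and 1 DiD- cell, and no kinetochore gene by 3 and 1. Every cell of both groups held at least 1 gene of the cyclin and Cks class and of the chromatin class. Of the 32 and 28 cells 0 held none, with binomial upper limits of 10.9% and 12.3%.

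The 14 DiD+ cells with at least 24 genes did not hold the same genes at the same levels. In cells 63, 67, 81 and 42, Ccnb1 was between 2141 and 3819 CPM and Cdc20 between 974 and 2220 CPM. Aurkb was at 664, 550 and 575 CPM in cells 63, 67 and 81 but at 50.5 CPM in cell 42, and Top2a at 746, 957 and 514 against 164 CPM. Cell 64 had the highest Aurkb of the DiD+ cells (698 CPM), with Ccnb1 at 634 and Cdc20 at 198 CPM. Cell 25 held 45 genes with Ccnb1 at 69.8 and Ccnb2 at 32.0 CPM. Cell 82 held 39 genes with Ccnb2 at 46.4 CPM and Cdk1 at 546 CPM.

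Cells 80, 24, 38 and 88 had another makeup. Ccnb2 was at 1224, 427, 665 and 631 CPM and Cenpa at 484, 269, 418 and 273 CPM, within the upper range of all cells. In the same cells Aurkb was at 0.27, 0, 64.4 and 46.1 CPM, Top2a at 46.2, 0, 0 and 0.23 CPM, and Kif11 was at 0 except for 41.8 CPM in cell 24. Cells 24 and 88 are among the macrophage-marker cells, each with all 13 markers at 10 counts, and cells 80 and 38 had 0 and 1 such markers. Cell 35 had the highest Cks1b (1306 CPM), Birc5 (1112 CPM) and Psrc1 (303 CPM) of the DiD+ cells and Cdk1 at 1155 CPM, but Top2a at 2.02 CPM and no count on Kif11, Aurka, Cenpf, Ndc80 or Lbr. Cell 18 held 28 genes at a summed 3212 CPM. Cell 87 was the reverse of cell 35 in breadth: it held 41 genes, all 6 kinases among them, at a summed level of only 2650 CPM, with Cdk1 at 169.9 and Ccnb1 at 95.3 CPM. Cell 87 also had the most genes detected (10456) and the most mouse counts per spike-in count (177.8) of the DiD+ cells.

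The S phase genes, a list of 43 markers of that phase, separated these cells further. Cells 63, 67, 81 and 42 had 3517, 1708, 3210 and 1713 summed S phase CPM, all below the median DiD- cell (5035 CPM), whereas cells 25, 82 and 64 had 15177, 13027 and 11740 CPM. Cells 80 and 38 had 1954 and 955 CPM. In DiD- cells the highest G2/M cells, 65 and 27, likewise had 3847 and 1618 S phase CPM, and cells 79 and 26 had 14983 and 14928 CPM with 6776 and 6682 G2/M CPM. Over the cells, Spearman's rho between the G2/M and the S phase sums was 0.70 in the 32 DiD+ cells and 0.01 in the 28 DiD- cells. This is a description, since both sums come from the same libraries. The median S phase sum was 1834 CPM in DiD+ cells, so cells 63 and 81 were above it and cells 67 and 42 somewhat below. Most DiD+ cells were low in both sums.

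**Figure D4:**
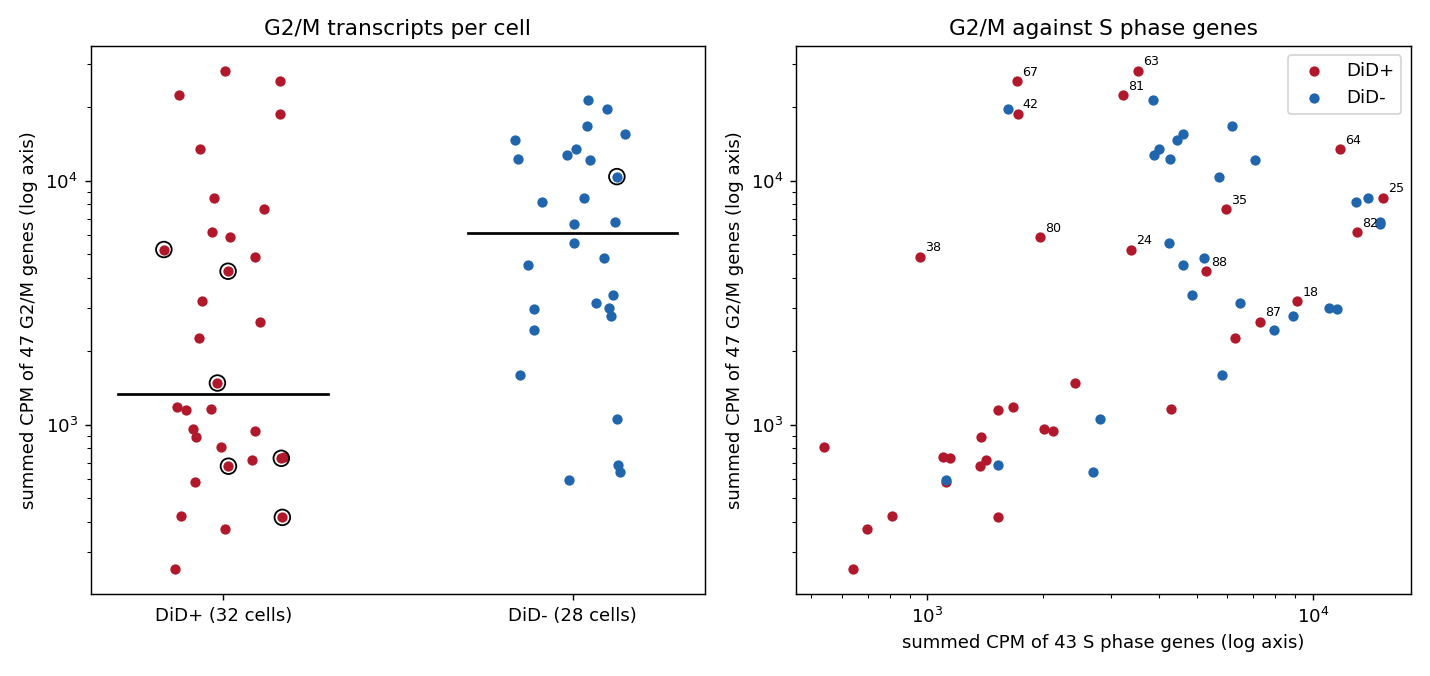
Left, summed CPM of the 47 genes per cell (log axis) in 32 DiD+ and 28 DiD- cells, with the group medians (1333 and 6127) as lines and the 7 macrophage-marker cells circled. Right, the same sum against the summed CPM of 43 S phase genes (log axes), with the 14 DiD+ cells that held at least 24 genes numbered. Cells 63, 67, 81 and 42 lie high with S phase sums below the median DiD- cell (5035 CPM), and cells 25, 82 and 64 lie at the right.

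Within each group the members followed one another closely. Over the 1081 pairs of genes the median Spearman rho was 0.67 in DiD+ and 0.71 in DiD- cells, with lowest values of -0.01 and -0.17. Against the depth of the cell, the summed G2/M CPM had a rho of 0.07 in DiD+ and -0.0011 in DiD- cells. Against the genes detected it was 0.41 and 0.46, and against mouse counts per spike-in count 0.44 and 0.18. With summed macrophage CPM it was 0.01 and 0.14. All these points share the libraries of the same cells.

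Other mitosis genes, from a list of 86 of which 84 were found, had pooled ratios if anything lower than those of the 47. The median cell showed the opposite order: its summed CPM had a log2 ratio of -1.53 for these genes and -2.20 for the 47. All 84 passed 1 CPM in a group, and their median log2 ratio was -0.63. A ratio below 0 was seen for 80, against 46.8% of all genes. At least 1.5-fold lower were 47, against 12.1%, and 0 were higher by as much, against 20.8%. This list was described over all 60 cells and not again without the macrophage-marker cells. The lowest were Lmnb2, lamin B2 of the nuclear envelope (4.46 against 27.2 CPM, -2.37), Depdc1b (7.61 against 29.7 CPM, -1.83), Mybl2, a transcription factor of the MuvB complex (18.0 against 56.3 CPM, -1.59), Haspin, the kinase that marks centromeric histone H3 (-1.45), and Esco2, a cohesin acetyltransferase (-1.42). Lmnb2 was held by 3 DiD+ and 16 DiD- cells, and Haspin by 4 and 11. The highest were Aspm, a spindle pole protein (0.42), Lin54, the MuvB subunit that reads the CHR (0.39), Pttg1, the securin that guards separase (0.30), Mis12, a kinetochore scaffold (0.04), and Cbx5 (-0.04). Securin was held by all 60 cells, like Cks1b. Medians by role were not taken for this list, and the low place of the kinases among the 47 need not hold in it. Its kinesins Kif18a (-1.19) and Kif22 (-1.06) and its kinetochore gene Spc25 (-1.13) were below its kinases Plk4 (-1.02) and Plk1 (-0.59). Haspin was below all of these, and the kinesin Kif14 (-0.43) and the kinetochore gene Bub3 (-0.45) were above them. The S phase list had a median of -0.71 over 42 genes, and 2 genes, Uhrf1 and E2f8, are in both lists. Over the 60 cells the summed CPM of the other mitosis genes followed that of the 47 with a rho of 0.92 in DiD+ and 0.96 in DiD- cells.

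Among the 8768 genes outside the 47 with 10 CPM or more in either group, those most like the members were found by Spearman's rho with their summed CPM over the 60 cells. The first was Racgap1 (0.94), a partner of Kif23 and Ect2 in the central spindle, at 274 against 472 CPM. It was followed by Gm12856 (0.93), Pimreg (0.92), Ccnb1-ps (0.91), Kif20a (0.90), Ccna2 (0.89), Knstrn (0.88), Ska1 (0.88), Cep55 (0.88) and Mad2l1 (0.87). Of these 10, 8 were on the list of other mitosis genes, and the other 2 were Gm12856 and Ccnb1-ps. In these 2 genes all nonzero values (100%) included fractions, as in Ccnb1, and in Kif20a and Ccna2 92.1% and 97.6% did, so their counts are shared in part with other genes. Kif20a had nearly equal pooled values, 310 and 331 CPM, whereas Ccna2, cyclin A2, was at 165.6 against 282.6 CPM.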

How the data were processed

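Single PyMT-Bo1 cells were sequenced with the SMARTer v4 and Nextera XT kits, which do not mark strand. Per the labels and the study's methods, the authors trimmed adapters, aligned reads with STAR to GRCm38/mm10 with spike-in and transgene sequences added, and deposited the raw RSEM estimated counts of each gene in each cell. Versions were not given in the sources used here. Of these values, 96.6% were whole, and all were rounded. A second table, which the authors normalized with BASiCS (unit: signal), was used only as an alternative scaling. No sample column was left unused.

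Counts on mouse genes were added up within each group, divided by the group total to give CPM, and compared as log2 ratios with a pseudocount of 1 CPM, which pulls low genes toward 0. Lists cover genes that reached 1 CPM in either group. The members and lists were chosen with earlier results of these data known. All 47 genes are given by role. In depth, the text gives the gene with the highest CPM per kb of exons (GENCODE, GRCm38) in each role and the 5 lowest and 5 highest ratios, further the 5 lowest and 5 highest of the other mitosis genes, the 10 genes most like the members, every DiD+ cell with at least 24 members, and promoters of up to 4 in-depth genes by level. Intervals are 95% exact Poisson or Clopper-Pearson. With 1 pooled sample a group, no test was run, and the authors' BASiCS test was not repeated.

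Alternatives were the mean of the cells' CPM, BASiCS values, spike-in scaling, edgeR 4.0.16 and DESeq2 1.42.0 factors (R 4.3.3), pseudocounts of 0.1 and 10 CPM, other minimums, other limits for holding a gene, thinning, leaving out macrophage-marker cells and leaving out each cell. Leaving out genes with mostly non-whole counts, and erythroid-marker cells beside the macrophage-marker cells, was added after seeing the data. Python 3.11.15 was used. On simulated counts for 47729 genes, the DiD+ over DiD- comparison put 95.5% of 200 altered genes within 0.2 (log2) of the ratio set. All altered genes were at 10 CPM or more, and the simulated cells of a group shared the same gene proportions. This checked the calculation, and could not show how the spread between real cells affects the ratios.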

Additional observations from a re-analysis of the deposited data

How the results depend on the processing

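The median log2 ratio of the 47 genes stayed below 0 in every setting run: it was -0.62 with spike-in scaling, which moved the median of all genes from 0.04 to -0.33, -0.45 with a pseudocount of 10 CPM, -0.27 without the macrophage-marker cells and -0.24 without the erythroid-marker cells as well (added after seeing the data), and ran from -0.76 to -0.37 with 1 cell left out. The count of genes at least 1.5-fold lower was 26 with spike-in scaling, 8 without the macrophage-marker cells and 7 without both kinds of cells, and ran from 13 to 29 with 1 cell left out. The count of genes below 0 ran from 39 to 45 with 1 cell left out. The log2 ratio of the median cell was -2.93 with spike-in scaling, -2.34 with BASiCS values, -1.69 without the macrophage-marker cells and without both kinds, and -1.76 with each gene divided by its highest cell, and ran from -2.37 to -2.05 with 1 cell left out. At least 12 genes were held by 26 DiD+ and 25 DiD- cells, and at least 36 genes by 9 and 14, so the gap between the groups depends on the limit. Without the 5 genes with mostly non-whole counts the median was -0.51. A value was called moved when it shifted by more than the distance from the middle to an end of its counting interval. For role classes that interval was taken from the medians of the members' limits. All 56 values for single genes and role classes moved without the macrophage-marker cells, and 50 of the 56 with spike-in scaling. With 1 cell left out, 1974 such values moved and 1386 did not. The 17 genes at least 1.5-fold lower stayed below 0 with spike-in scaling, without the macrophage-marker cells and with each cell left out. Each group is 1 pooled sample, so the spread between mice was not measured. The cause of these shifts was not tested.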

Other observations

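Among the same 8768 genes, those that ran most against the summed G2/M CPM over the 60 cells were Ypel3 (rho -0.69), Gabarap (-0.69), Tcp11l2 (-0.65), Ctsb (-0.64) and Pnrc1 (-0.63). Gabarap is an autophagy protein and Ctsb encodes the lysosomal protease cathepsin B. These values describe 60 libraries of 1 experiment and were chosen by their size.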
